A study of Mus musculus with 10 samples.

Results

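The p53 target genes of cell death described here are 10 genes that p53, the transcription factor activated by damaged DNA, is known to induce and whose products act in cell death. They were taken by name, with no threshold on their values: Eda2r, Fas, Tnfrsf10b, Bbc3, Pmaip1, Perp, Phlda3, Aen, Ei24 and Apaf1, out of 18194 genes that have a probe set of exactly 1 gene symbol on the array. The 10 genes have 15 probe sets; 7 genes have 1 and 3 genes (Aen, Apaf1 and Tnfrsf10b) have several. The brightest probe set of a gene by its mean over the 10 arrays stands for the gene, and the others serve as a check. All values are log2 expression values as deposited, so a difference of 1 is a 2-fold change.

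The samples were whole lungs of ICR mice, an outbred strain, with 1 Affymetrix array each. Newborn pups were pooled within 12 hours of birth and assigned at random to 80% oxygen, as a mouse model of the lung injury that follows oxygen therapy in preterm infants (bronchopulmonary dysplasia, BPD), or to room air. Lungs were taken after 14 days (P14) or 29 days (P29), which gives 4 groups: P14 room air (2 arrays), P14 hyperoxia (3 arrays), P29 room air (2 arrays) and P29 hyperoxia (3 arrays). The room-air groups are labelled WT and the hyperoxia groups BPD, and no group carries an engineered allele. Nursing dams were rotated between the exposures in all groups. The lungs were rinsed but not sorted into cell types, so a change can come from fewer cells of a type or from less RNA per cell, and these cannot be told apart. The labels do not say that each array is a separate animal, so the spread behind each p-value may be technical only, and 2 or 3 arrays per group limit the precision.

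As background, p53 promotes death by several routes. Its targets include death receptors at the cell surface (Fas, Tnfrsf10b) and the related receptor Eda2r, which binds the A2 form of ectodysplasin. They also include the BH3-only proteins Bbc3 (PUMA) and Pmaip1 (NOXA), which release the block that BCL2 proteins put on mitochondrial permeabilisation, and Apaf1, which cytochrome c then assembles into the caspase-activating apoptosome. In the neonatal lung, prolonged high oxygen is known to damage DNA and to activate p53.

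The sequence before each gene's start was searched for motifs in common. RefSeq windows of 300 bases (250 before a transcript start and 50 after it, build GRCm38.p6) were at hand for 7 of the 10 genes, in 10 windows. They were searched for the consensus p53 decamer, which is its own reverse complement; p53 binds a pair of them. A decamer occurred in 8.36% of all 32851 windows, and 2 decamers with 0 to 13 bases between them in 0.0731%. Among the members 2 genes held a decamer, Aen and Ei24, and 0 windows held 2. The count of 2 is by gene and the 8.36% is by window, so these are not alike. Both Aen windows held the same decamer. The motif TATAAA occurred in 13.6% of all windows when both strands were searched. In the windows of the members it was counted on the gene's strand only, where 1 member, Eda2r, had it. The share and the member count are therefore not alike. The windows of Phlda3, Bbc3, Apaf1 and Fas held no decamer and no TATAAA on the gene's strand. A match is a description of the letters and not a binding site. The next sequences are of genes that rose at both ages, apart from Apaf1, which rose too but whose sequence is not shown. Cdkn1a, the p53-induced inhibitor of the cell cycle and no member, is added as an example of a window with 2 decamers. The letters run 5′ to 3′ on the gene's strand; capitals mark TATAAA in Eda2r and the decamers in the others, and Phlda3 has neither. The stretches of Eda2r, Phlda3 and Ei24 are the 250 bases before the start, and that of Aen is the first 30 bases after it.

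Eda2r, chrX:97377210-97377459, - strand: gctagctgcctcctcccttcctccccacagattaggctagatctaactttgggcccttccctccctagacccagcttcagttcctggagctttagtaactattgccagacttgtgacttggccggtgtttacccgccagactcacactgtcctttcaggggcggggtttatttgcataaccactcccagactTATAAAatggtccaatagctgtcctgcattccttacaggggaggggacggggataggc
Phlda3, chr1:135765835-135766084, + strand: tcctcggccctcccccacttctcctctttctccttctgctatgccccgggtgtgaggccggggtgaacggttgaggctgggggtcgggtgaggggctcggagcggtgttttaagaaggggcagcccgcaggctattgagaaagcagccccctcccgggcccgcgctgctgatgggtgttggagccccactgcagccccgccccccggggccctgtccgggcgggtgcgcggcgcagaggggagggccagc
Ei24, chr9:36797335-36797584, - strand: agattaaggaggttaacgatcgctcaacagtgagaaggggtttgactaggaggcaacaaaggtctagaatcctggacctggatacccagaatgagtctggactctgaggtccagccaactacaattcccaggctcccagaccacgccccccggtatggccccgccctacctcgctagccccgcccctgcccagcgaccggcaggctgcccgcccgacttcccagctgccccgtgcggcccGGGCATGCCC
Aen, chr7:78895927-78895956, + strand: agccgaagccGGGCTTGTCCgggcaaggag
Cdkn1a, chr17:29090906-29090937, + strand: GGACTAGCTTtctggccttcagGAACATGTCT

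The decamer of Ei24 begins at -10 from the transcript start and that of Aen lies at +11 from the first of its 2 listed starts and at -121 from the other. The TATAAA of Eda2r begins at -58. G and C make up 50.3% of the Eda2r window, 58.0% and 63.3% of the Aen windows, 59.0% for Fas, 66.3% for Ei24, 71.7% for Phlda3, 74.7% for Apaf1 and 74.7% to 78.0% for Bbc3, with a median of 52.7% over all windows, close to Eda2r.

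The arrays resembled each other closely within a group (r = 0.993 to 0.996 across genes) and less so between groups (0.935 to 0.983). Lung markers were bright on every array, among them surfactant protein C, Sftpc, at 14.66 or more and the type 1 cell receptor Ager at 14.03 or more. Of the 8 stratified epithelium markers, which would come with oesophagus, Krt13 and Krt14 stayed under 5 on all arrays and the other 6 did not, with Krt5 at 6.04 to 6.59. Of 5 thymus markers Rag1 stayed under 5 and the other 4 did not, with Rag2 at 5.38 to 6.08 and Dntt at 5.41 to 5.74. The summed linear levels were 369 to 474 for stratified epithelium and 407 to 844 for thymus over the 10 arrays. The summed linear level of 6 heart markers was 6060 to 7198 in P14 room air, 9736 to 10788 in P14 hyperoxia, 11954 to 15159 in P29 room air and 6886 to 11624 in P29 hyperoxia. Both RNA controls moved with oxygen. The gap between the 3' and the 5' probe sets for actin, which widens when RNA is degraded or copied short, was 0.32 to 0.74 on the 4 room-air arrays and 1.33 to 2.21 on the 6 hyperoxia arrays. The same gap for Gapdh was -0.14 to 0.12 and 0.48 to 1.11. Sex-linked transcripts also differed. Xist, the transcript of the inactive X chromosome, was at 6.63 to 6.99 on all 5 P14 arrays, at 12.48 and 12.66 in P29 room air, and at 7.12, 12.54 and 11.94 in P29 hyperoxia. P29 hyperoxia replicate 3 carried Y-linked transcripts as well (mean 7.71), and leaving it out changed no call of a member.

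The first question was which of the 10 genes differed between hyperoxia and room air at each age. At P14, 8 were higher in hyperoxia and 0 lower by limma at an adjusted p under 0.05, with 2 not called; 32.3% of all 14989 genes tested were higher and 22.8% lower. At P29, 5 were higher, 0 lower and 5 not called, against 34.2% higher and 25.5% lower over all genes. At an unadjusted p under 0.05 the numbers lower were also 0 and 0; after quantile normalization 1 member was lower at P14 and 2 at P29. The arrays of the 2 groups did not overlap, with hyperoxia higher, for 8 members at P14 (39.6% of all genes) and 7 at P29 (41.2%). Their median log2 change was 0.58 at P14 and 0.41 at P29, against 0.04 and 0.04 for all genes tested. Higher at both ages were 5 members, Eda2r, Phlda3, Aen, Ei24 and Apaf1 (22.3% of all genes), and 3 were higher at P14 and not called at P29, Fas, Pmaip1 and Perp (8.55% of all genes). Tnfrsf10b and Bbc3 were called at neither age, as were 24.4% of all genes. All 10 members passed the filter on low values, but Eda2r passed it only through the 6 hyperoxia arrays and so had to differ. Without it 7 of 9 were higher at P14 and 4 of 9 at P29, with median log2 changes of 0.58 and 0.16.

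**Figure D1:**
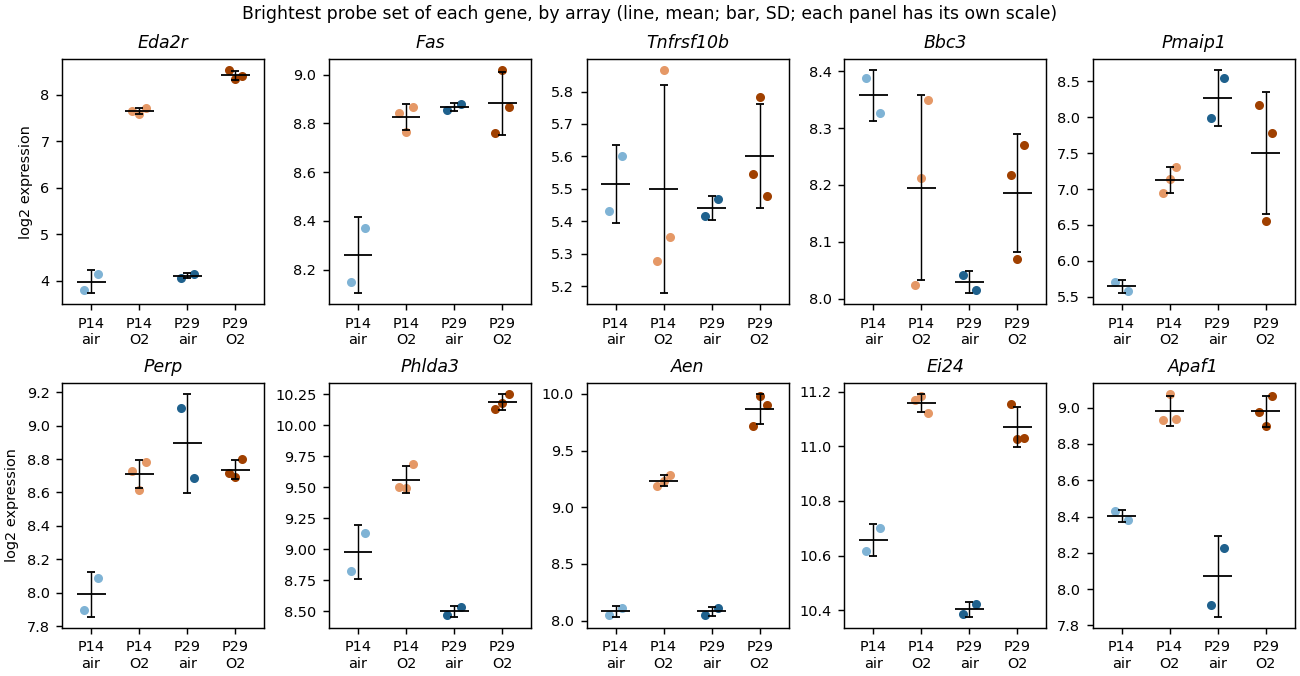
Log2 expression of the brightest probe set of each of the 10 genes on the 10 arrays, by group (air, room air, n = 2; O2, hyperoxia, n = 3); points are arrays, lines are means and bars are SDs, and the axes do not start at 0. Eda2r, Phlda3, Aen, Ei24 and Apaf1 are high in both hyperoxia groups, while Fas, Pmaip1 and Perp are lowest in P14 room air.

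The receptors are described first. Eda2r, a TNF receptor family member without a death domain, was at 3.81 and 4.16 in P14 room air and at 7.66, 7.59 and 7.72 in P14 hyperoxia. It was at 4.07 and 4.15 in P29 room air and at 8.53, 8.34 and 8.40 in P29 hyperoxia. No room-air array came near a hyperoxia array, and all 4 room-air values lay under 5, the level used as the filter. The gene was thus tested only because its hyperoxia arrays were high, so its p-values against room air add no support. The fitted rise was 3.67 ± 0.11 (SE) on the log2 scale at P14 (adjusted p = 9.03e-09) and 4.31 ± 0.11 at P29 (adjusted p = 3.06e-09). Since such low values may be background, the rise is better given against the filter level in place of room air, as at least 6.30-fold at P14 and at least 10.7-fold at P29. Eda2r lies on the X chromosome; the P14 rise was measured among 5 arrays that all had Xist low, and within P29 hyperoxia its value was 8.53 on the array with Xist low and 8.34 on the array with Xist high and no Y-linked signal. The last array was also taken alone for P29 hyperoxia, as an alternative added after seeing the data. Eda2r, Phlda3, Aen, Ei24 and Apaf1 were again higher than in room air, and Pmaip1 was lower, at -1.72. This single array has no spread of its own and was assumed to vary like the other groups. With the actin gap as a term in the fit, Aen was the only member besides Eda2r called at P14.

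Fas, the receptor of Fas ligand, gave another pattern. It was at 8.15 and 8.37 in P14 room air, and at 8.84, 8.76 and 8.87 in P14 hyperoxia, a rise of 0.56 ± 0.10 (SE; 1.48-fold, adjusted p = 0.000606). At P29 it was at 8.85 and 8.88 in room air and at 8.76, 9.02 and 8.87 in hyperoxia, so the arrays overlapped, with a difference of 0.02 and a 95% confidence interval from -0.20 to 0.23. The P14 room-air arrays were the low ones, and the other 3 groups overlapped. With the actin gap as a term the P14 rise of Fas was 0.38 and no longer called (adjusted p = 0.26). Fas is also made by lymphocytes; the summed level of 9 measured T and natural killer cell markers was 756 to 803 in P14 room air, 496 to 532 in P14 hyperoxia, 1709 to 1746 in P29 room air and 603 to 636 in P29 hyperoxia, and their part in the Fas values was not tested.

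Tnfrsf10b, the mouse receptor of the ligand TRAIL, was dim. It read 5.43 and 5.60 in P14 room air against 5.28, 5.87 and 5.35 in P14 hyperoxia, and 5.42 and 5.47 in P29 room air against 5.55, 5.78 and 5.48 in P29 hyperoxia. These values overlapped at P14 and lay just apart at P29. The differences were -0.02 (95% confidence interval -0.36 to 0.33) and 0.16 (-0.19 to 0.51), and neither was called. Its other, dimmer probe set was higher in hyperoxia at P29 by 0.59 ± 0.15 (SE; adjusted p = 0.00704 over the 27615 probe sets that passed the filter) and not called at P14 (0.30, adjusted p = 0.112). The 2 probe sets thus disagree on the call at P29, and their mean gave a rise of 0.38 (adjusted p = 0.0238).

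The BH3-only genes differed from each other. Bbc3, which encodes PUMA, was at 8.39 and 8.33 in P14 room air and 8.02, 8.21 and 8.35 in P14 hyperoxia, with overlapping arrays. By P29 it stood at 8.04 and 8.02 in room air and 8.22, 8.07 and 8.27 in hyperoxia. Its differences were -0.16 (95% confidence interval -0.39 to 0.06) at P14 and 0.16 (-0.07 to 0.38) at P29, both uncalled. After quantile normalization the P14 value was -0.30 and was called (adjusted p = 0.0288).

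Pmaip1, which encodes NOXA, was at 5.71 and 5.58 in P14 room air and at 6.95, 7.14 and 7.30 in P14 hyperoxia. The rise was 1.48 ± 0.36 (SE; 2.80-fold, adjusted p = 0.00497). At P29 it was at 7.99 and 8.54 in room air and at 8.17, 6.55 and 7.78 in hyperoxia, the widest spread of any member in a group (SD 0.85, n = 3). Replicate 2 of P29 hyperoxia, at 6.55, was below the other P29 arrays, and the others overlapped. The P29 difference was -0.77 (95% confidence interval -1.56 to 0.02, adjusted p = 0.0864). This value turned on single arrays. Without P29 hyperoxia replicate 2 it was -0.29 (adjusted p = 0.212), without P29 room air replicate 2 it was -0.49 (adjusted p = 0.392), and without P29 hyperoxia replicate 1 it was -1.10 and called (adjusted p = 0.0137). It was also called after quantile normalization (-0.90, adjusted p = 0.0489). With replicate 2 alone standing for P29 hyperoxia it was -1.72. At P14 the rise was not called with the actin gap as a term (1.19, adjusted p = 0.383).

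Perp, a membrane protein of desmosomes in epithelia and a p53 effector, resembled Fas. It was at 7.90 and 8.09 in P14 room air and at 8.73, 8.62 and 8.78 in P14 hyperoxia, a rise of 0.72 ± 0.12 (SE; 1.64-fold, adjusted p = 0.000478). At P29 room air stood at 9.10 and 8.69 and hyperoxia at 8.72, 8.69 and 8.80, with overlap and a difference of -0.16 (95% confidence interval -0.42 to 0.10). Without P29 room air replicate 2 that difference was -0.37 and was called lower (adjusted p = 0.0233), as it was after quantile normalization (-0.34, adjusted p = 0.0283). The P14 rise was not called with the actin gap as a term (0.66, adjusted p = 0.146). The summed level of 6 airway epithelium markers had a like order of groups. It was 41559 to 43733 in P14 room air and 59572 to 63293 in P14 hyperoxia. At P29 it was 73241 to 73776 in room air and 69375 to 69994 in hyperoxia. Alveolar type 1 cell markers, when summed, ran in the same order, with the P14 groups just overlapping. Their sums were 44345 to 44867 in P14 room air and 44845 to 47720 in P14 hyperoxia. At P29 they were 59552 to 60430 in room air and 48614 to 50280 in hyperoxia. Single markers did not all follow the sums. Of the 6 airway markers 4 were called higher and 1 lower at P14, and 2 and 3 at P29. Of 8 type 1 cell markers 2 were called higher and 0 lower at P14, and 3 and 4 at P29. The part of either cell type in the Perp values was not tested. Among 9 desmosome genes 4 were higher and 1 lower at P14, with Dsp at 1.35 ± 0.10 and Pkp2 at 1.12 ± 0.09, while at P29 3 were higher and 3 lower, with Ppl at -1.05 ± 0.11. The background shares over all genes were 32.3% higher with 22.8% lower (P14) and 34.2% with 25.5% (P29), and the P29 count lay near them. A dim probe set of Dsp gave -0.52 at P14.

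Phlda3, whose product blocks the membrane recruitment of the survival kinase AKT, rose at both ages and more at P29. It was at 8.83 and 9.14 in P14 room air and at 9.50, 9.50 and 9.69 in P14 hyperoxia, a rise of 0.58 ± 0.10 (SE; adjusted p = 0.000781). By P29 it stood at 8.47 and 8.53 in room air and at 10.13, 10.18 and 10.25 in hyperoxia, a rise of 1.69 ± 0.10 (3.22-fold, adjusted p = 5.17e-07). All 4 groups stood apart from their neighbours in the order of levels. With the actin gap as a term the P14 rise was 0.19 (adjusted p = 0.536), and at P29 Phlda3 remained among the 5 members called.

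Aen, a nuclease that p53 induces during apoptosis, was at 8.05 and 8.12 in P14 room air and at 9.19, 9.23 and 9.29 in P14 hyperoxia. At P29 it was at 8.05 and 8.11 in room air and at 9.72, 9.98 and 9.90 in hyperoxia. The room-air groups overlapped each other, and both hyperoxia groups lay above them and apart. The rises were 1.15 ± 0.09 (SE; 2.22-fold, adjusted p = 4.55e-06) and 1.79 ± 0.09 (3.45-fold, adjusted p = 1.68e-07). Its next brightest probe set gave 0.76 ± 0.10 and 0.75 ± 0.10, both called, with no larger effect at P29. A further probe set gave 0.08 (not called) at P14 and 0.72 ± 0.18 (called) at P29, and the dimmest gave -0.13 and 0.32, neither called. The P29 rise was thus positive on all 4 probe sets and called on 3, and the P14 rise was called on 2.

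Ei24, an endoplasmic reticulum protein first found as a p53-induced gene, was at 10.62 and 10.70 in P14 room air and at 11.17, 11.19 and 11.12 in P14 hyperoxia. By P29 it stood at 10.38 and 10.42 in room air and at 11.16, 11.03 and 11.03 in hyperoxia. Its arrays lay close together within each group, with SDs of 0.03 to 0.07. The rises were small against those of Aen, at 0.50 ± 0.08 (SE; 1.42-fold, adjusted p = 0.000291) and 0.67 ± 0.08 (1.59-fold, adjusted p = 3.21e-05). The P14 rise was 0.57 with the actin gap as a term and no longer called (adjusted p = 0.0657).

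Apaf1, the scaffold of the apoptosome, was at 8.43 and 8.38 in P14 room air and at 8.93, 9.08 and 8.94 in P14 hyperoxia. At P29 it was at 7.91 and 8.23 in room air and at 8.97, 8.90 and 9.07 in hyperoxia. Both hyperoxia groups lay above both room-air groups, with rises of 0.58 ± 0.10 (SE; 1.49-fold, adjusted p = 0.000769) and 0.91 ± 0.10 (1.88-fold, adjusted p = 2.83e-05). Its other probe set, dimmer, went the other way: 7.24 and 6.85 in P14 room air against 6.67, 6.55 and 6.15 in P14 hyperoxia, a difference of -0.59 ± 0.16 (adjusted p = 0.0119 over probe sets), and -0.30 (adjusted p = 0.144) at P29. The direction of Apaf1 at P14 therefore depends on the probe set, and the mean of both gave -0.01 (adjusted p = 0.969). The P14 rise on the brightest probe set was 0.55 and not called with the actin gap as a term (adjusted p = 0.158).

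**Figure D2:**
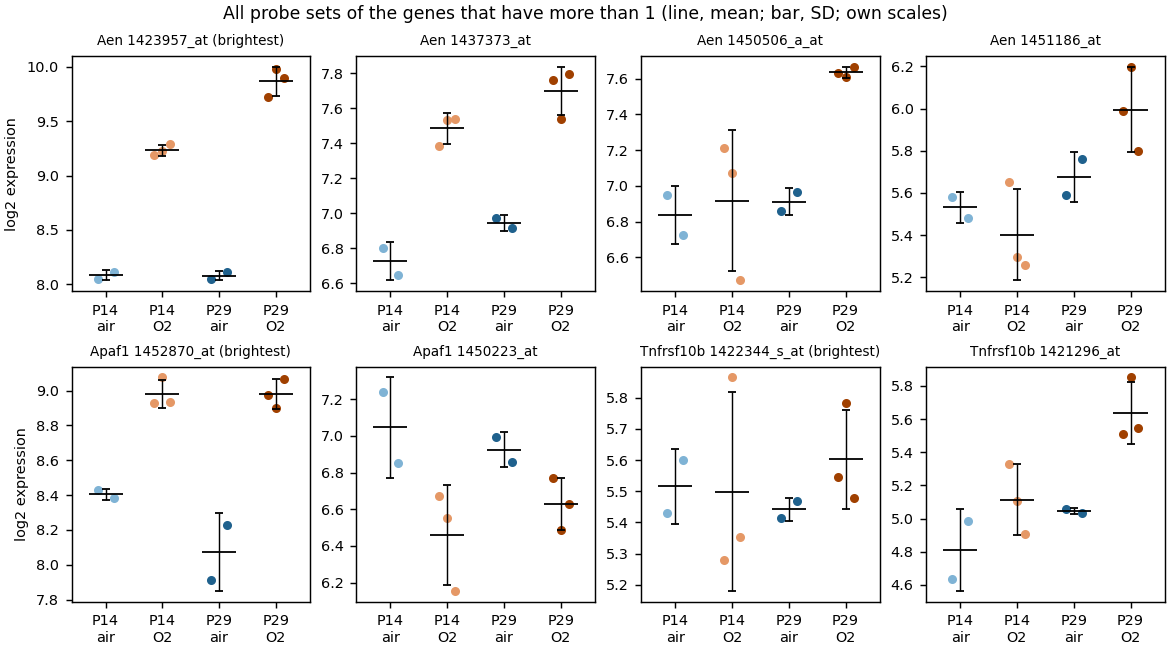
Log2 expression on every probe set of Aen, Apaf1 and Tnfrsf10b by group (air, room air, n = 2; O2, hyperoxia, n = 3); points are arrays, lines are means and bars are SDs, and the axes do not start at 0. All 4 Aen probe sets are highest in P29 hyperoxia, and the 2 Apaf1 probe sets run in opposite directions.

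The second question was whether the effect of hyperoxia differed between the ages. The test of the difference called 6 of the 10 genes (22.5% of all genes), 3 with a higher effect at P29 and 3 with a lower one, where 11.0% and 11.6% of all genes were called. Higher at P29 were the effects on Phlda3 (by 1.10 ± 0.15, SE, adjusted p = 0.000401), Eda2r (0.64 ± 0.15, adjusted p = 0.0106) and Aen (0.63 ± 0.13, adjusted p = 0.00447); genes higher at both ages with a higher effect at P29 made up 2.74% of all genes. On the other Aen probe sets the difference was -0.01 (adjusted p = 0.99), 0.64 (adjusted p = 0.117) and 0.45 (adjusted p = 0.17), so it was called on the brightest alone. Lower at P29 were the effects on Pmaip1 (-2.25 ± 0.51, adjusted p = 0.00885), Perp (-0.88 ± 0.17, adjusted p = 0.00361) and Fas (-0.55 ± 0.14, adjusted p = 0.0144). Without P14 room air replicate 1 the Fas difference was -0.44 (adjusted p = 0.0504). The remaining 4 gave differences of 0.33 for Apaf1, 0.32 for Bbc3, 0.18 for Tnfrsf10b and 0.17 for Ei24, none called; Apaf1 was called without P29 room air replicate 2 (0.49, adjusted p = 0.0351). All 6 calls were also made with the actin gap as a term. Cell cycle markers also differed more between the exposures at P29, through low levels in P29 room air. Their summed levels overlapped between the hyperoxia groups. The 11 measured ones summed to 8123 to 9674 in P14 room air and 10509 to 13020 in P14 hyperoxia. At P29 they summed to 3741 to 4372 in room air and 10672 to 10847 in hyperoxia. Taken singly, 7 of the 11 were called lower and 1 higher at P29 than at P14 in hyperoxia. Over all genes these shares were 11.7% and 15.4%. The part of these markers in the member values was not tested.

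**Figure D3:**
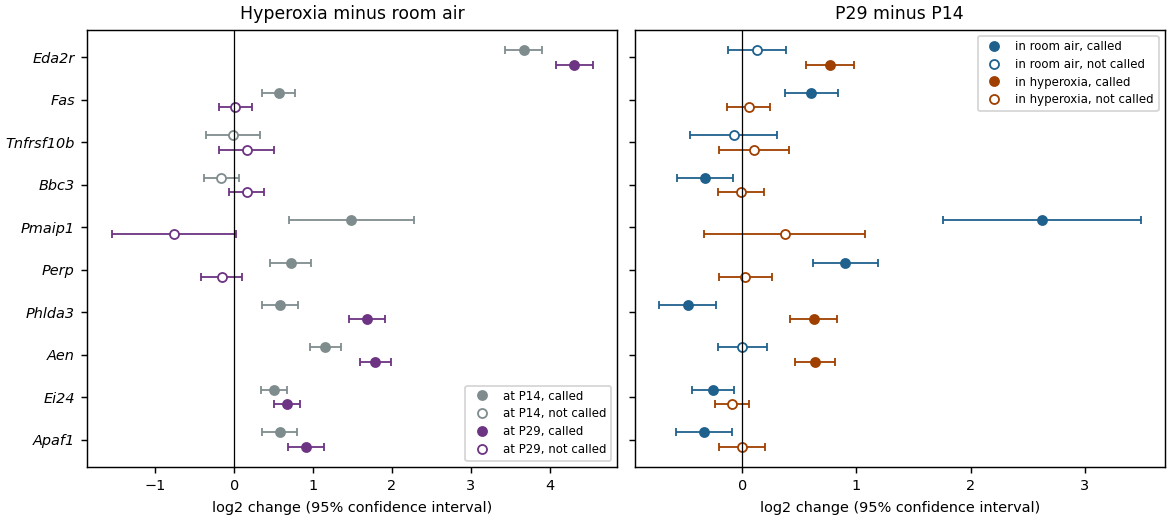
Log2 change of each gene with its unadjusted 95% confidence interval, for hyperoxia minus room air at P14 and P29 (left) and for P29 minus P14 in room air and in hyperoxia (right); filled points passed an adjusted p of 0.05. Eda2r, Phlda3 and Aen changed more at P29 than at P14, and Pmaip1, Perp and Fas rose with age in room air.

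The third question was how the genes changed with age in each atmosphere. These contrasts use the same arrays as those above, so they restate them from another side. Both P14 room-air arrays had low Xist and both P29 room-air arrays high Xist, so age and sex pattern cannot be told apart there. In room air 3 genes were higher at P29 (22.2% of all genes) and 4 lower (19.1% of all genes). Pmaip1 rose 6.16-fold (2.62 ± 0.39, SE, adjusted p = 0.000273), Perp by 0.90 ± 0.13 (adjusted p = 0.000199) and Fas by 0.61 ± 0.11 (adjusted p = 0.000783), which are the 3 genes whose hyperoxia effect was lower at P29. Genes that were higher at P14, had a lower effect at P29 and rose with age in room air made up 6.09% of all genes. Phlda3 fell by 0.48 on the log2 scale (adjusted p = 0.00543), Apaf1 by 0.33 (adjusted p = 0.0335), Bbc3 by 0.33 (adjusted p = 0.0346) and Ei24 by 0.25 (adjusted p = 0.0307). The last 3 were not stable: leaving out single room-air arrays left 3 to 5 of the 7 calls. With P14 room air replicate 2 out, all 4 falls were lost and the 3 rises were kept (Phlda3 at -0.32, adjusted p = 0.0512). Without P14 room air replicate 1 Bbc3 and Apaf1 were lost, without P29 room air replicate 1 Bbc3, Ei24 and Apaf1, and without P29 room air replicate 2 Bbc3 and Ei24. In hyperoxia 3 genes were higher at P29 (15.4% of all genes), Eda2r by 0.77 ± 0.10 (adjusted p = 0.000195), Aen by 0.63 ± 0.08 (adjusted p = 0.000218) and Phlda3 by 0.63 ± 0.09 (adjusted p = 0.000607). By limma 0 were lower in hyperoxia, also at an unadjusted p under 0.05 (11.7% of all genes were lower). Pmaip1 was at 0.37 there and was called without P29 hyperoxia replicate 2 (0.85, adjusted p = 0.00601).

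The order of the 4 groups was shared between several genes. For Phlda3, Aen and Eda2r P29 hyperoxia was the highest group and stood apart from P14 hyperoxia, which stood apart from both room-air groups. For Ei24 and Apaf1 the 2 hyperoxia groups overlapped and stood above room air. For Fas, Perp and Pmaip1 P14 room air stood apart at the bottom and each of the other groups overlapped its neighbour in the order. In Tnfrsf10b every neighbouring pair overlapped, and in Bbc3 P29 room air, the lowest group, stood apart from its neighbour alone. Profiles were also compared over the 10 arrays, each centred on its mean, by the root mean square difference in log2 units, as a description. The closest pairs of members were Ei24 with Apaf1 (0.13) and Fas with Perp (0.15). Outside the group, the 3 genes nearest to Aen were Timp1 (0.11), Elovl4 (0.12) and Pvt1 (0.13). Those nearest to Phlda3 were Ms4a7 (0.14), Trp53bp1 (0.15) and Slfn9 (0.17), and those nearest to Eda2r were Cdkn1a (0.69), Il6 (0.73) and Nqo1 (0.79), whose changes were all smaller than its own.

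**Figure D4:**
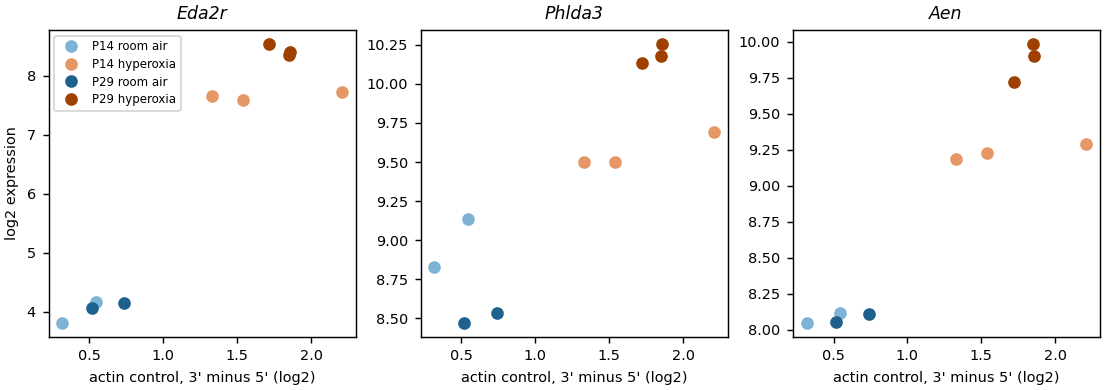
Log2 expression of Eda2r, Phlda3 and Aen against the actin gap (3' probe set minus 5' probe set, log2) on the 10 arrays. The hyperoxia arrays lie at 1.33 to 2.21 and the room-air arrays at 0.32 to 0.74, with no array between them.

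The actin gap separated the exposures without overlap, and its part in the changes was not tested. Within P14 hyperoxia, where the control ran from 1.33 to 2.21, Eda2r lay between 7.59 and 7.72, Aen between 9.19 and 9.29 and Phlda3 between 9.50 and 9.69, with all 3 highest on the array with the widest gap. With the control as a term, 2 of the 10 members were called at P14, Eda2r and Aen, and all 5 at P29. Eda2r passed the filter only through its hyperoxia arrays and so had to differ. Without it Aen alone was left at P14, and Phlda3, Aen, Ei24 and Apaf1 at P29. Over all genes the term left 809 higher and 578 lower at P14 of 4838 and 3411, and 1628 and 1277 at P29 of 5119 and 3829.

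The other genes of these pathways were counted from lists of their known genes. For comparison, limma called 32.3% of the 14989 tested genes up and 22.8% down in P14 hyperoxia. In P29 hyperoxia these shares were 34.2% and 25.5%. Of 16 other p53 targets measured, 11 rose and 0 fell at P14 (12 and 0 at an unadjusted p under 0.05), with a median of 0.60, and 11 were higher and 2 lower at P29, with a median of 0.73. Cyclin G1, Ccng1, rose by 1.56 ± 0.10 (SE) and 1.70 ± 0.10, and its other probe sets gave 0.60 to 0.88. Of 12 genes of p53 and its regulators, 6 were higher and 1 lower at P14 and 4 higher and 2 lower at P29, with medians of 0.23 and 0.00. The P29 counts of these 12 genes lay near the shares over the tested genes. Mdm2, the p53 target that degrades p53, rose by 0.58 ± 0.08 and 0.60 ± 0.08, and Ppp1r13l, an inhibitor of p53, fell by 0.38 and 0.51 on its brightest probe set. Its other probe sets disagreed, at 0.07, 0.10 and -0.45 at P14 and 0.01, 0.24 and -0.38 at P29.

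Ligands and adaptors of the death receptors were counted next. Of 12 measured, 0 were higher at P14 by limma (0 at an unadjusted p under 0.05) and 3 lower, where 32.3% of all genes were higher and 22.8% lower. At P29 1 was higher, the adaptor gene Tradd (0.37, adjusted p = 0.00981), named after its value was seen, and 5 were lower, where 34.2% and 25.5% of all genes were. The medians were -0.14 and -0.22. Tnfsf10, which encodes TRAIL, fell by 0.35 (adjusted p = 0.0441) at P14 and by 0.67 (adjusted p = 0.00129) at P29, and the adaptor Fadd fell by 0.34 and 0.59 (-0.09 and 0.12 on a dimmer probe set). The other Tnfsf10 probe sets gave -0.92 and -0.03 at P14 and -1.47 and -0.29 at P29. Faim2, an inhibitor of Fas signalling in neurons, fell by 0.48 and 1.23 (-0.03 and -1.08 on a dimmer probe set). The summed levels of leukocyte markers were also lower in hyperoxia, and their part in these values was not tested. Not every single marker followed. Of 8 macrophage markers 2 were called higher and 5 lower at P14, and 0 and 5 at P29. The summed level of 7 neutrophil markers was 4693 to 4825 in P14 room air, 1181 to 1362 in P14 hyperoxia, 5008 to 7518 in P29 room air and 747 to 782 in P29 hyperoxia. That of 8 macrophage markers was 10037 to 10425, 8352 to 8899, 18794 to 19729 and 9371 to 11420 in the same order, and that of 6 B cell markers 835 to 836, 515 to 670, 1613 to 2565 and 518 to 596. The ligand gene of Eda2r, Eda, named after its values were seen, was at -0.23 (95% confidence interval -0.54 to 0.09) and -0.20 (-0.52 to 0.12), and Fasl stayed under the filter, at 3.88 to 4.48 on the 10 arrays.

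The genes downstream were called in both directions, at shares read against 32.3% higher and 22.8% lower of all genes at P14 and 34.2% and 25.5% at P29. The BCL2 family counts lay near these shares at P14. Of 13 BCL2 family genes 5 were higher and 3 lower at P14 and 6 higher and 1 lower at P29, with medians of 0.08 and 0.03. The survival gene Mcl1 rose by 0.49 ± 0.08 (SE) at both ages, with -0.11 to 0.84 on its other probe sets. Bcl2 rose by 0.56 ± 0.11 and 0.78 ± 0.11, although 2 of its 4 other probe sets gave values below 0 at both ages. Of 14 apoptosome and caspase genes 7 were higher and 4 lower at P14 and 6 higher and 2 lower at P29, with medians of 0.21 and 0.11. Cytochrome c, Cycs, which triggers Apaf1 assembly, rose by 0.69 ± 0.10 and 0.66 ± 0.10, and Casp9, the caspase that the apoptosome activates, fell by 0.64 and 0.63 (0.04 and -0.15, and -0.38 and -0.58, on its other probe sets). Birc5, the survivin gene, also active in mitosis, rose by 3.06 ± 0.17 at P29 and by 0.79 ± 0.17 at P14. Trp53, Bax, Ripk1, Gdf15 and Bcl2a1d had no probe set of exactly 1 symbol here and were not analysed.

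**Figure D5:**
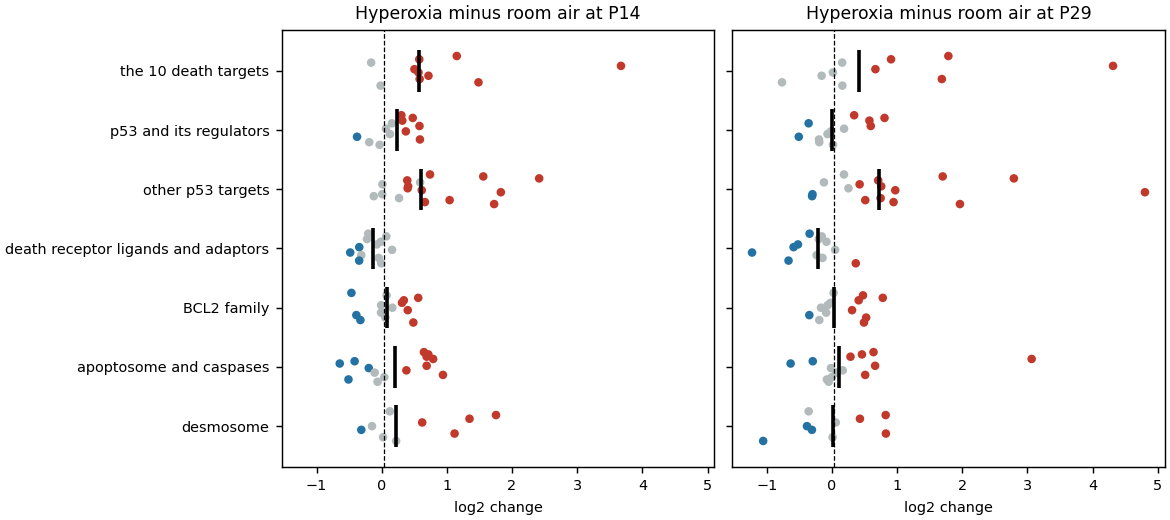
Log2 change of each measured gene, hyperoxia minus room air, in the 10 death targets and 6 pathway lists, at P14 (left) and P29 (right); red points were called higher, blue lower and grey not called, vertical bars are list medians and the dashed line is the median of all genes tested. The 10 death targets have medians of 0.58 and 0.41 (0.58 and 0.16 without Eda2r), and the ligands and adaptors of -0.14 and -0.22.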

How the data were processed

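Lung RNA of 10 samples was measured on Affymetrix mouse arrays of 45101 probe sets. The values are log2 expression as the authors deposited them; the submitters' processing notes list Partek 6.4 and GCRMA, without settings in the sources used here. Array medians were 6.41 to 6.47. Groups and replicate numbers came from the sample titles. Names came from GEO's annotation of the platform, in which 34958 probe sets had 1 symbol, 932 several and 9211 none. Each gene was represented by its brightest probe set, and 14989 of 18194 genes had a log2 level of at least 5 on 2 arrays. Group means of all 10 arrays were fitted with limma 3.58.1 in R 4.3.3 (lmFit, eBayes; 6 residual and 5.09 prior degrees of freedom), two-sided, with Benjamini-Hochberg adjustment over all genes tested. A call means an adjusted p under 0.05. The steps were tested on simulated data. Alternatives were 2 other filters, 2 other uses of probe sets, a trend with robust fit, a fit of the compared groups only, quantile and 75th percentile scaling, weights per array, a replicate block, the actin gap as a term and leaving out each array. Named genes were the 10 members, up to 4 called genes of smallest p per pathway list and age, and the 3 nearest profiles of each member called at both ages with a log2 change of 1 or more. The members and lists were chosen with earlier results of these data known. Promoter sequences are RefSeq's (GRCm38.p6).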

Additional observations from a re-analysis of the deposited data

Results flagged for a closer look

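The effect of hyperoxia differed between P14 and P29 in 6 of the 10 genes by the test of the difference itself. The difference, P29 minus P14, was 1.10 for Phlda3, 0.64 for Eda2r and 0.63 for Aen on the log2 scale. It was -2.25 for Pmaip1, -0.88 for Perp and -0.55 for Fas. At P14 all 5 arrays had low Xist, whereas at P29 both room-air arrays and 2 of the 3 hyperoxia arrays had high Xist, so age and sex pattern cannot be told apart in the room-air groups. No group has more than 3 arrays, so single arrays far from the rest of a group were not tested for.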

How the results depend on the processing

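The counts of members called kept within 1.5 times of those reported under all alternatives, except these. With the actin gap as a term 2 members were called at P14, Aen and Eda2r, of which Eda2r had to differ. With array weights 4 were called in the comparison of ages in room air. Leaving out 1 array gave 3 to 7 calls in that comparison, 8 at P14, 5 to 6 at P29, 5 to 7 for the difference of effects and 3 to 4 for age in hyperoxia.

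Apart from Apaf1 at P14, the values that changed sign were uncalled. Fas at P29 (0.02) was -0.165 after quantile normalization, -0.12 with 75th percentile scaling, -0.0064 with array weights and -0.15 with the actin term. Tnfrsf10b at P14 (-0.02) was 0.14 with the mean of probe sets, 0.064 after quantile normalization, 0.052 with array weights, 0.051 with the replicate block and 0.039 with the actin term. Bbc3 at P29 was -0.15 with the actin term, and Apaf1 at P14, a called rise, -0.0054 with the mean of probe sets. Over age in room air, Tnfrsf10b was 0.081 and Aen 0.11 with the mean of probe sets, and Aen 0.013 with 75th percentile scaling. Over age in hyperoxia, Bbc3 was 0.016 with array weights, Perp -0.0054 after quantile normalization and Apaf1 0.084 with the mean of probe sets. Leaving out 1 array gave, at P14, -0.20 to 0.093 for Tnfrsf10b, and at P29 -0.052 to 0.075 for Fas and -0.37 to 0.051 for Perp. Over age in room air it gave -0.044 to 0.30 for Eda2r, -0.16 to 0.011 for Tnfrsf10b and -0.035 to 0.032 for Aen. Over age in hyperoxia it gave -0.011 to 0.12 for Fas, -0.0070 to 0.29 for Tnfrsf10b, -0.094 to 0.068 for Bbc3, -0.020 to 0.062 for Perp and -0.045 to 0.046 for Apaf1. The causes were not tested.

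Correlations of deviations from group means were -0.09 to 0.20 for same-numbered arrays and -0.16 to 0.11 for other pairs. The 2 arrays of a room-air group deviate by equal and opposite amounts. These values therefore cannot decide whether the replicate numbers pair the samples. The replicate block left the counts at 8, 5, 6, 7 and 3. Of all calls at P14 58.6% were higher, against 46.8% after quantile normalization and 45.0% with 75th percentile scaling; at P29 57.2%, against 47.9% and 41.2%, with all-gene medians of 0.04 before and -0.09 after the latter scaling. The groups compared were not fitted alone for the difference of effects, which needs all 4.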
